A study of Arabidopsis thaliana with 28 samples.

Results

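A set of 55 probe sets, of 22746 non-control probe sets on the array, gave a steady signal in developing Arabidopsis leaves and a far lower one in mature leaves. They were chosen on the mean of log2(signal + 10) in each group of samples. The highest and the lowest mean of the 6 developing times had to differ by less than 1, and the mature mean had to lie at least 2.5 below the lowest developing mean. This second distance is called the gap, and the first the range. Since both the difference between leaf ages and the spread over time chose the members, these values are given as a description without a test.

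Transcript levels were measured with Affymetrix ATH1 arrays, on which several short probes per gene report one signal, in total RNA of Col-0 leaves. Developing leaves at insertions 19 to 21 were sampled 2, 4, 12, 24, 48 and 96 h into the treatment, with 4 replicates per time, and mature leaves of treated plants at 24 h, with 2 replicates. The series title gives the treatment as low light at ambient CO2. The labels give a growth room with normal atmosphere, 50% humidity, 20 °C, a 10 h light period and Humax compost for all plants. No untreated array is used here, so every comparison is between times or between leaf ages. The treatment notes mark developing and mature samples with different letters, AS and ASm, which they do not define, so whether both kinds of leaf were treated alike is not established, and leaf age and treatment cannot be told apart. The labels do not say whether replicates came from separate plants, so p-values may measure technical spread alone. The mature leaves have only 1 time and 2 replicates.

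Growing leaf cells make large amounts of protein and enlarge by loosening and adding cell wall. Their cytosolic ribosomes are built from many different ribosomal proteins, most of them encoded by several near-identical genes, and secreted proteins pass through the endoplasmic reticulum to the wall. Expanded leaves have largely stopped dividing and growing, and make fewer ribosomes.

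Of the 55 members, 28 have 1 gene in the probe table, 1 has 2 genes and 26 are not listed there, so these 26 are named by their probe set only. Of the 29 with a gene, 12 encode wall or secreted proteins, 10 belong to the ribosome and to protein synthesis, and 7 have other or no stated roles. The members with 1 gene lie on all 5 nuclear chromosomes, with 4, 3, 8, 5 and 8 on chromosomes 1 to 5. The reverse pattern, a steady signal in developing leaves and a mature mean at least 2.5 above the highest of them, was found for 109 probe sets.

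The gap ran from 2.51 to 5.08 with a median of 2.76 on the log2 scale, was above 3 for 16 members and above 4 for 5. The range over the developing times ran from 0.28 to 1.00 with a median of 0.58. Mean developing signals lay between 82.8 and 2744, and mature means between 1.297 and 356. In all 55 members each of the 24 developing replicates was above both mature replicates, and the closest pair lay 1.71 apart on the log2 scale. Such a separation with the mature leaves below was found for 27.4% of the probe sets tested, and nothing is read from the members' count because the rule asked for it. The limma fit called all 55 lower in mature than in developing leaves at 24 h, against 37.5% of the 13647 probe sets tested. This contrast too was used by the rule.

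**Figure D1:**
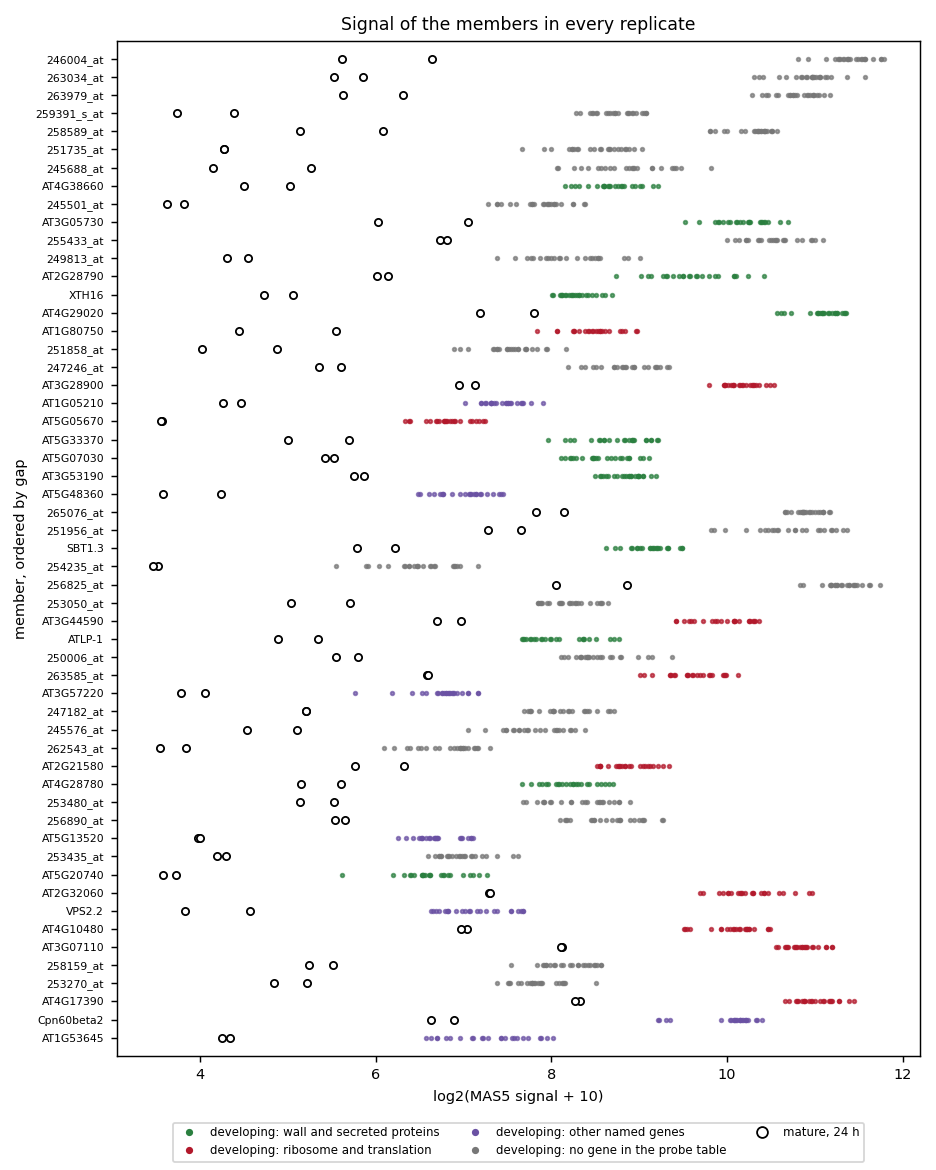
Each row is a member, ordered by gap, and the x axis is log2(MAS5 signal + 10). Filled points are the 24 developing replicates, coloured by role, and open circles the 2 mature replicates at 24 h. In no row do the filled points reach the open circles, and the gap narrows from 5.08 in the top row to 2.51 in the bottom row.

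Every member passed the filter on low values, because a mean over all groups is carried by the developing leaves in which members are high. In mature leaves 24 members had a mean signal under 27.8, the level at the 40th percentile of the array, and 31 were above it. For the former the mature value is close to the dimmest probe sets, so the size of the gap depends on the constant of 10 added before the logarithm. The 2 mature replicates differed by between -1.03 and 1.11 on the log2 scale, with a median of -0.07 for replicate 2 minus replicate 1. With mature replicate 1 left out, the rule chose 56 probe sets, 46 of them members, and in the left-out array 36 of the 56 again had a gap of at least 2.5 and all 56 one of at least 2. With replicate 2 left out it chose 52, of which 45 were members, and in replicate 2 36 of the 52 had a gap of at least 2.5 and 48 one of at least 2. The lowest of the 52 gaps in replicate 2 was 0.78.

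At the thresholds the choice was fine-grained. The members just inside the gap threshold were AT1G53645, Cpn60beta2 and AT4G17390, all at 2.51, and the probe sets just outside were AT4G03100, 256144_at and AT3G20260, all at 2.49. Just inside the range threshold lay AT1G53645 at 1.00, 251956_at at 0.94 and Cpn60beta2 at 0.93. Just outside it lay AT4G29030 at 1.01, 260531_at at 1.03 and AT1G62500 at 1.07. AT4G29030 had a gap of 4.73, which only 246004_at clearly exceeded among the members, and is the gene next to the member AT4G29020. STOMAGEN met both thresholds, with a gap of 2.55 and a range of 0.68, and was left out by name, as were SPCH, CHIL, AUR1, AUR2 and PRL, which did not meet them.

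**Figure D2:**
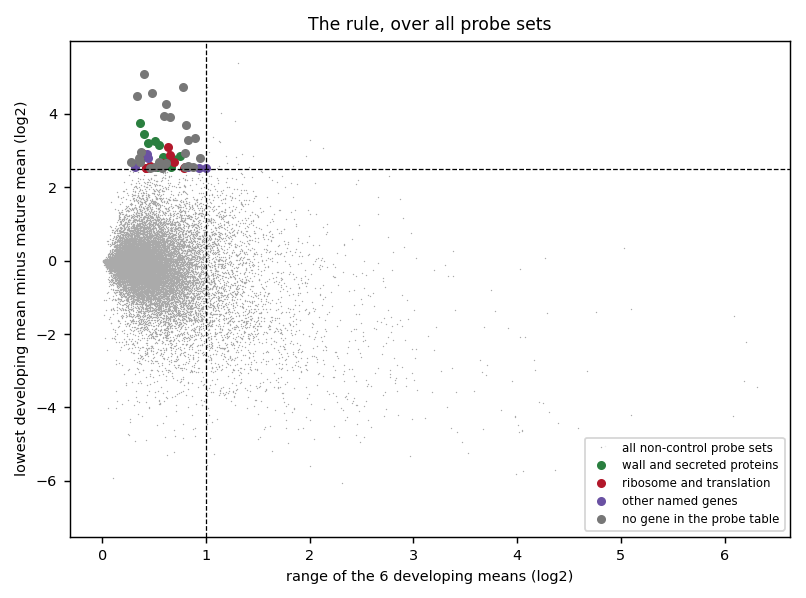
Each point is a probe set, with the range of its 6 developing means on the x axis and the lowest developing mean minus the mature mean on the y axis, both in log2 units. Dashed lines mark the thresholds of 1 and 2.5. The 55 coloured members fill the upper left corner, and over the whole array 20507 probe sets met the range threshold and 77 the gap threshold.

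With 10 added to the signal, the 5 largest gaps among the named members belonged to wall and secreted proteins. The order depends on that constant. By the ratio of the 24 h means, AT5G05670 of the translation group, whose mature signal is near 0, stood at 58.3 and AT4G38660 at 25.1. AT4G38660 encodes a thaumatin-like protein, a family of secreted proteins related to the pathogenesis-related ones. Its signal in the 24 developing replicates ran from 276 to 587 with a median of 395. At 24 h the 4 developing replicates gave 298, 475, 562 and 433 and the 2 mature replicates 22.5 and 12.6. The mature values were thus far below the lowest developing value, and the gap was 3.76.

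AT2G28790 encodes another thaumatin-like protein. It ranged in developing leaves from 416 to 1363 with a median of 751, and at 24 h it was 630.1, 799, 1203 and 1092 in developing and 60.4 and 55.0 in mature leaves. The developing replicates of this gene were widely spread, and none came near the mature ones. Another member of the family, ATLP-1, had a gap of 2.67. Of 21 thaumatin-like loci, a list compiled after the values were seen, 18 had a probe set and 8 were tested. Among these 8, 4 were lower in mature leaves, the 3 members and AT1G73620, and 4 were higher. AT1G73620 had a gap of 2.31, a range of 1.05 and a difference of -2.94 ± 0.27 (SE, limma adjusted p = 2.25e-10). AT4G36010 of the same family was higher in mature leaves by 1.18 ± 0.24 (SE, adjusted p = 0.000108). The rule fixed the direction of the 3 members. Outside them only AT1G73620 was called lower and 4 genes were called higher. Over all probe sets tested, 37.5% were lower and 27.1% higher.

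XTH16 encodes a xyloglucan endotransglucosylase/hydrolase, an enzyme that cuts and rejoins xyloglucan chains in the wall. Its developing signal ran from 248 to 403 with a median of 296. At 24 h the developing replicates gave 326, 380.0, 403 and 354 and the mature ones 23.3 and 16.5. The developing leaves at 24 h were the highest of the 6 times, at 366 ± 33.4 (SD, n = 4), and the mature leaves were more than an order of magnitude below. Of the other genes with an XTH symbol and a probe set, only XTH32 was tested. It was lower in mature leaves by a smaller amount (-0.58 ± 0.12, SE, limma adjusted p = 0.000112), with a range of 2.13 over the developing times. EXGT-A3, a xyloglucan-modifying enzyme that does not carry an XTH symbol here, was higher in mature leaves by 1.36 (SE 0.20, limma adjusted p = 1.23e-06).

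AT3G53190 belongs to the pectate lyase family, whose enzymes cleave pectin. Developing leaves gave from 352 to 577 with a median of 464, and at 24 h it gave 496, 471, 551 and 519.5 in developing and 44.2 and 48.2 in mature leaves. Both groups were tight, and the gap was 2.82. AT5G20740, of the family of invertase and pectin methylesterase inhibitors, had a gap of 2.54.

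AT4G29020 encodes a glycine-rich protein and had the highest signal among the named wall and secreted members. Its developing signal ran from 1514 to 2612 with a median of 2185. At 24 h it was 2612, 2346, 2201 and 2169 in developing and 214 and 136 in mature leaves. The mature level stayed well above the dim end of the array, and the ratio of the 24 h means was 13.4. AT3G05730 encodes a defensin-like protein, one of the small cysteine-rich secreted peptides. It ran from 727 to 1645 with a median of 1178 in developing leaves and gave 55.2 and 123 in mature leaves, which differed from each other by about as much as the developing replicates did, while staying below all of them.

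Among secreted hydrolases, AT5G33370 encodes a GDSL lipase, a class that includes cuticle-forming enzymes. It gave from 239.8 to 583 with a median of 446 in developing leaves, and the mature replicates gave 42.0 and 22.1. AT4G28780, another GDSL lipase, had a gap of 2.56. AT5G07030 encodes an aspartyl protease and ran from 266 to 544 with a median of 357, against 33.1 and 36.1 in mature leaves. SBT1.3 encodes a subtilase, a serine protease of the secretory pathway, and had a gap of 2.76. Of 7 genes with an SBT symbol and a probe set, grouped after the values were seen, 2 were tested. SBT1.3 was low by the rule, and the other was called higher in mature leaves at 24 h, by 1.83. The developing and mature values did not overlap in any of the 4 members of this paragraph, as in every member, which the rule favours. Such a separation with the mature leaves below was found for 27.4% of the probe sets tested.

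Genes listed for wall growth did not share one direction. Of 36 symbols listed for cell wall growth, 6 had a probe set and all 6 were tested, 5 lower and 1 higher in mature than in developing leaves at 24 h, with a median difference of -1.08 against -0.10 over all probe sets tested. XTH16 is one of the 5 and enters the median, and as a member it was low by the rule. Over all probe sets tested, 37.5% were lower and 27.1% higher. EXPA4, an expansin, fell by 1.21 on the log2 scale (SE 0.22, limma adjusted p = 2.93e-05), and EXPB3 by 1.23 (SE 0.18, adjusted p = 9.29e-07). EXGT-A3, another xyloglucan-modifying enzyme, rose by 1.36 (SE 0.20, adjusted p = 1.23e-06). EXPA8 is not among the 36 symbols and was picked after its values were seen. It was higher in mature leaves by 3.17 ± 0.25 (SE, limma adjusted p = 1.36e-11). Of 10 genes with an EXPA symbol and a probe set, grouped after the values were seen, 4 were tested, 2 lower and 1 higher.

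Ribosomal proteins were the most frequent kind of product among the members with a gene, with 8 probe sets. The most intense was AT4G17390, a protein of the large subunit. Its developing signal ran from 1615 to 2788 with a median of 2016. At 24 h it was 2677, 2190.0, 2462 and 2292 in developing and 311 and 299 in mature leaves. The mature replicates agreed closely with each other and lay far below the lowest developing value.

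AT3G07110, also of the large subunit, ran from 1493 to 2343 with a median of 1842, against 268 and 266 in mature leaves. AT3G28900, of the large subunit, ran from 882 to 1473 with a median of 1137, against 114 and 130.5. AT2G32060, of the small subunit, ran from 819.7 to 2001 with a median of 1203, against 147 and 148. In these 3 genes the mature replicates were nearly equal and the ratio of the 24 h means was 7.51, 9.56 and 8.76.

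AT3G44590, an acidic protein of the large subunit's stalk, which recruits the translation factors, ran from 676 to 1311 with a median of 1041, against 115 and 93.7 in mature leaves. AT1G80750, of the large subunit, had the largest gap of the group, 3.10, and a lower signal, from 219 to 496 with a median of 351. Its mature replicates gave 11.8 and 36.8 and so differed from each other more than those of the other ribosomal members. AT2G21580, of the small subunit, had a gap of 2.56. The probe set 263585_at, listed with the genes AT4G31985 and AT2G25210 of the large subunit, had a gap of 2.66.

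Beside the ribosome itself, AT4G10480 encodes the alpha subunit of the nascent polypeptide-associated complex, which binds chains as they leave the ribosome. In developing leaves it ran from 722 to 1432 with a median of 1104, and the mature replicates gave 122 and 116. The other tested genes of that complex, AT3G12390 and AT1G73230, were also lower in mature leaves, by 1.67 ± 0.12 for the former (difference -1.67, SE, limma adjusted p = 2.50e-12) and 2.06 ± 0.12 for the latter (difference -2.06, SE, adjusted p = 3.18e-14). AT5G05670 encodes a subunit of the signal recognition particle receptor, which docks ribosomes making secreted proteins at the endoplasmic reticulum. It ran from 70.5 to 142 with a median of 102, and both mature replicates were near the bottom of the array, at 1.84 and 1.78.

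Ribosomal protein genes outside the set moved the same way. The list of symbols drawn up for ribosomal proteins had no named probe set, so 224 cytosolic ribosomal protein loci were listed after the values were seen. Of these, 130 had a probe set with 1 gene and 119 were tested, 7 of them members. Among the 112 others, 108 (96.4%) were lower in mature than in developing leaves at 24 h and 0 were higher at a limma adjusted p of 0.05, against 37.5% lower and 27.1% higher over all probe sets tested. Their median difference was -2.09, with values from -3.58 to 0.14. The 71 ribosomal genes with a developing mean above 1000 were all lower in mature leaves. The count of 108 was obtained again with each replicate left out in turn. The differences of the 7 members, from -2.86 to -3.66, lay at the lower end of those of the others, and 42 of the 119 had a gap of at least 2. The signals are scaled to a common level on each array, so the differences are relative to other transcripts. In whole leaves, fewer cells of a type and less RNA per cell cannot be told apart.

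**Figure D3:**
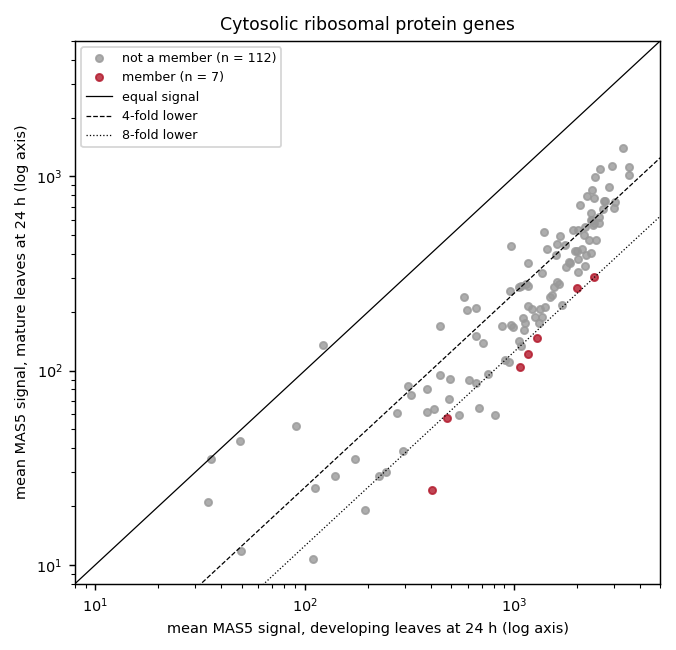
Each point is a tested cytosolic ribosomal protein gene, with its mean MAS5 signal in developing leaves at 24 h (n = 4) on the x axis and in mature leaves at 24 h (n = 2) on the y axis, both on log axes. Most grey points lie near the line of a 4-fold lower signal in mature leaves, with a median log2 difference of -2.09, and the 7 red members lie near or beyond the 8-fold line.

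Each of the 7 ribosomal families with a one-gene member had at least 1 other tested gene, and in each the member had the largest fall, as its selection favours. In the pair that holds AT4G17390, the gap was 2.51 for the member and 1.56 for AT4G16720, although their developing signals were alike, with medians of 2016 and 2053. In the pair that holds AT3G28900, the gap was 2.93 for the member and 1.99 for AT1G26880. AT3G07110 had a gap of 2.53, and the other 3 genes of its family 1.17, 1.18 and 1.71. AT1G80750 stood at 3.10 beside 1.04, 1.77 and 2.23 in its family. In the family of AT2G21580, the gene AT2G16360 was dim, with a developing median of 43.0, and its difference of -0.13 ± 0.17 (SE) did not pass the test. Probe sets of near-identical genes can bind one another's transcripts, which was not tested.

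**Figure D4:**
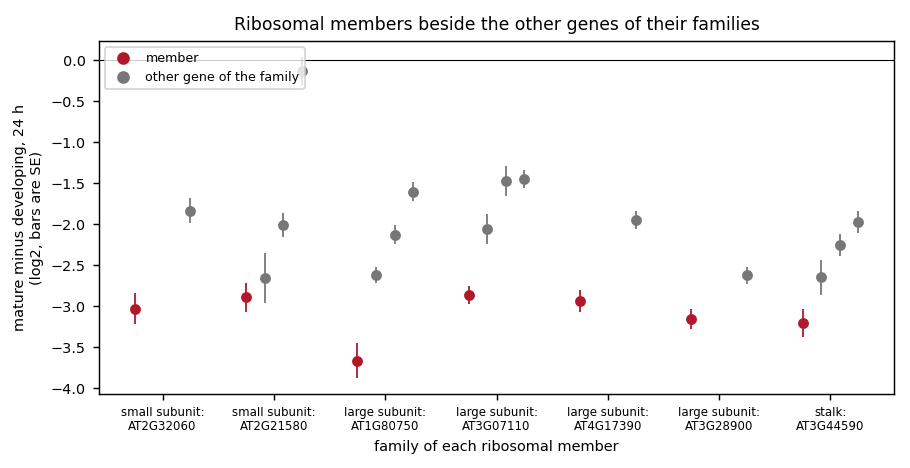
The y axis is the fitted log2 difference between mature and developing leaves at 24 h, with bars for its SE, for every tested gene in the 7 families that hold a ribosomal member. Members in red lie between -2.86 and -3.66, and all grey points except AT2G16360 at -0.13 lie below -1.

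The remaining named members have varied roles. Cpn60beta2 encodes a subunit of the plastid chaperonin, which folds proteins such as Rubisco's large subunit. Its developing signal ran from 584 to 1344 with a median of 1109.8. At 24 h the developing replicates gave 1127, 1280.3, 1124 and 1142 and the mature ones 109 and 89.5. The other tested plastid chaperonin genes were lower in mature leaves by less. For Cpn60beta3 the difference was -1.57 ± 0.16 (SE, limma adjusted p = 2.51e-09) and for Cpn60beta4 -0.52 ± 0.14 (SE, adjusted p = 0.00145).

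VPS2.2 encodes a subunit of the ESCRT-III complex, which buds membrane into endosomes. It ran from 89.0 to 195 with a median of 124, and the mature replicates gave 4.22 and 13.7. AT5G48360 encodes a formin, a protein that nucleates actin filaments, and ran from 79.8 to 165 with a median of 124, against 1.95 and 8.96. AT3G57220, a glycosyl transferase of the dolichol pathway that feeds protein glycosylation, ran from 44.6 to 134 with a median of 102, against 3.83 and 6.66. In these 3 genes the mature signals were at the dim end of the array. AT5G13520, a peptidase of the M1 family, had a gap of 2.55. For AT1G05210 and AT1G53645, which are given no role here, the mature replicates were 12.1 and 9.15 for the former and 10.4 and 8.99 for the latter.

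The 7 largest gaps of the whole set belonged to probe sets without a gene in the table. They were singled out after their values were seen. The strongest, 246004_at, ran from 1782 to 3524 with a median of 2679 in developing leaves and gave 90.3 and 39.3 in mature leaves. The next, 263034_at, ran from 1260.1 to 3040.1 with a median of 1999, against 47.8 and 36. Then 263979_at ran from 1237 to 2298 with a median of 1756, against 69.7 and 39.5. These 3 had ratios of 24 h means of 44.2, 56.8 and 37.7, while the 8 ribosomal members had ratios between 7.51 and 16.7. By this ratio 254235_at at 73.5, 245501_at at 65.8, 259391_s_at at 64.7 and AT5G05670 at 58.3 stood above all 3. The gaps of 259391_s_at, 258589_at, 251735_at and 245688_at were 4.49, 4.25, 3.93 and 3.91.

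Over time the members were nearly level by construction, and the remaining variation is given as a description. The highest of the developing means fell at 4 h for 21 members, at 2 h for 14 and at 24 h for 11, while 12 and 48 h each held 4 maxima and 96 h only 1. The lowest fell at 96 h for 27 members and at 12 h for 18. Most members were thus highest in the first hours and lowest either at 12 h or at the end. The same counts over all probe sets are not given here, so nothing particular to the members is read from them. Of the 26 unlisted members, 13 were above their own mean at 12 h.

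At 12 h against 2 h, 17 members were called lower and 1 higher by the limma fit, against 18.4% lower and 20.4% higher of all probe sets tested. The median member difference was -0.19 and that of all probe sets tested 0.03, and 39 of 55 members lay below 0. Since the rule capped the spread of the same means, these counts are a description. In the ribosome and translation group 6 of 10 were called lower, and in the wall and secreted group 3 of 12. The mean signal of Cpn60beta2 was 1175 ± 126 (SD, n = 4) at 2 h, dropped to 611 ± 29.5 by 12 h, and a further 12 h later was 1168 ± 75.1. For AT4G10480 the means at the same 3 times were 1281 ± 172, 734 ± 14.3 and 1178 ± 94.5. AT3G44590 followed this course with 1173 ± 147, 723 ± 54.3 and 1066 ± 244. All 3 genes were low at 12 h and near their 2 h level again after 24 h, while AT1G53645, with 215 ± 33.9, 102 ± 9.93 and 153 ± 49.2, came back only in part.

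Not all members dipped at 12 h. The means of VPS2.2 at 2, 4 and 12 h were 129 ± 27.4, 179.8 ± 19.9 and 169 ± 33.2 (SD, n = 4), and its lowest mean, 96.8 ± 7.86, came at 96 h. AT5G05670 was the only member of the ribosome and translation group with a 12 h mean above its 2 h mean, at 126 ± 16.7 against 112 ± 19.9, a difference within the spread between replicates. AT3G53190 and AT3G05730 also had higher means at 12 h than at 2 h, by 0.17 and 0.13 on the log2 scale. The 1 member called higher was the unlisted 251956_at, with a difference of 0.57.

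A day apart, at 24 h against 2 h, the counts are again a description, since the rule capped the spread of these means. The fit called 1 member higher and 3 lower, against 5.85% higher and 6.29% lower of all probe sets tested. The 1 called higher was XTH16, by 0.30, a call that was lost with a constant of 1, with median centring, and without replicate 3 of the 2 h leaves or replicate 4 of the 24 h leaves. The median of the members was -0.03.

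Between 24 and 96 h, 14 members were called lower and 0 higher, against 4.35% lower and 4.62% higher of all probe sets tested. The rule capped the spread of these means as well, so the counts are a description. At an unadjusted p below 0.05 the fit counted 26 members in either direction. The share of all probe sets at that threshold is not given here, so nothing is read from the 26. The differences of 52 of 55 members lay below 0, with a median of -0.30 against -0.02 over all probe sets tested. The means of AT5G33370 at 24, 48 and 96 h were 472 ± 94.3, 373 ± 64.7 and 288 ± 41.5 (SD, n = 4). AT2G28790 had means of 931 ± 263 after 24 h and 639 ± 107 after 96 h, and XTH16 of 366 ± 33.4 and 266 ± 26.5. For AT5G48360 they were 136 ± 34.8 and 95.4 ± 11.3. AT5G33370 and XTH16 are among the 14 called, and AT2G28790 and AT5G48360 are not. The wall and secreted members were lower at 96 h than at 24 h in 12 of 12 cases, 4 of them called, and those of the ribosome and translation group in 10 of 10, 3 of them called. At the other end were AT4G29020, with 2332 ± 202 and 2262 ± 189.7, and AT3G57220, whose mean was higher at 96 h by 0.22 and whose 24 h replicates were far apart. The count of 14 depended on single arrays. Among the 24 h leaves, leaving out replicate 1 raised it to 22 and leaving out replicate 3 lowered it to 6. Among the 96 h leaves, it was 8 with replicate 3 left out and 9 with either replicate 1 or replicate 4 left out.

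**Figure D5:**
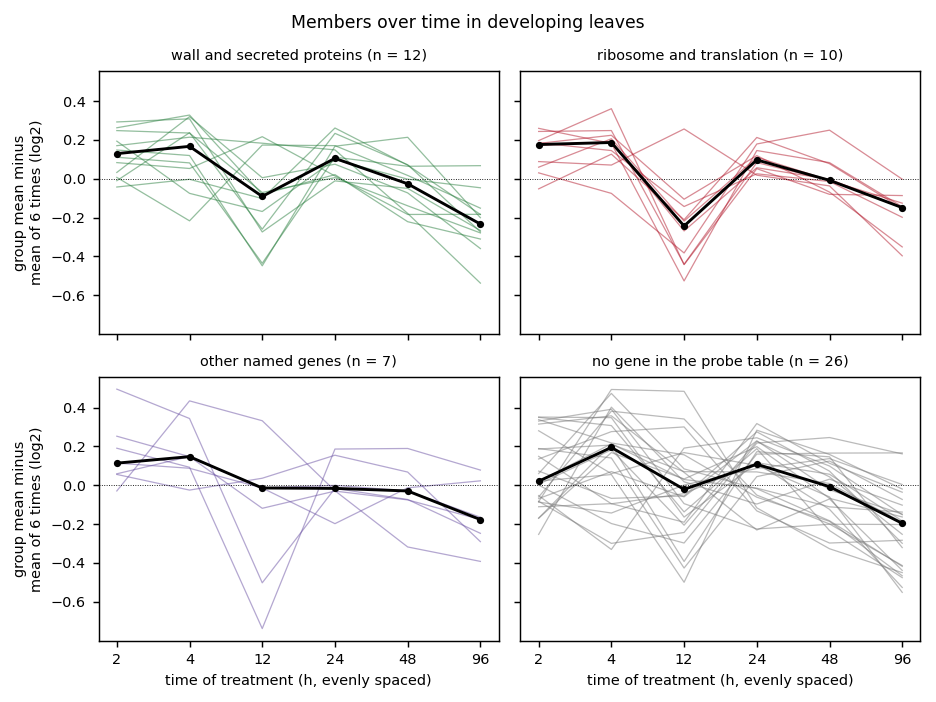
Each thin line is a member, with the time of treatment on an evenly spaced x axis and the group mean of log2(signal + 10) minus the member's mean over the 6 times on the y axis, and the black line is the median. In the ribosome and translation panel the medians for 2, 12, 24 and 96 h are 0.18, -0.24, 0.10 and -0.15, and in the wall and secreted panel 0.13, -0.09, 0.10 and -0.23.

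Ribosomal protein genes that are no members, having missed 1 or both of the thresholds, are described beside them. The rule capped the spread over time of the members but not of these genes, so their counts are not alike. At 12 h against 2 h, 59 of the 112 were lower and 0 higher at a limma adjusted p of 0.05, with a median of -0.25, beside 18.4% lower and 20.4% higher over all probe sets. At 24 h against 2 h, the count is given for all 119 tested ribosomal genes, 7 of them members. Of these, 3 were lower and 1 higher, with a median of 0.02, beside 6.29% lower and 5.85% higher over all probe sets. The median of the 10 members of the ribosome and translation group, which holds the same 7, was -0.09. At 96 h against 24 h, 32 of the 112 were lower and 0 higher, with a median of -0.29, beside 4.35% lower and 4.62% higher over all probe sets. No difference between these genes and the members was tested. The latter count was 16 with replicate 3 of the 24 h leaves left out, and 17 or 20 with replicate 1 or 4 of the 96 h leaves left out. Clock time and time of treatment cannot be told apart here, because the labels give no hour of sampling.

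Within each time, replicate 1 tended to be the lowest array for the members. In order of time it was the lowest of the 4 in 31, 18, 27, 36, 31 and 20 members. The same counts over all probe sets are not given here, so nothing particular to the members is read from them. In order of time, its median deviation from the group mean over the members was -0.23, -0.04, -0.09, -0.17, -0.10 and -0.03 on the log2 scale. Over all probe sets tested it lay between -0.02 and 0.01. The log2 ratio of the 3′ to the 5′ GAPDH control probe sets is a sign of RNA quality. From 2 to 48 h it was highest on replicate 1. On the replicate 1 arrays it was 0.66, 0.98 and 0.93 at 2, 4 and 12 h, 0.82 and 1.23 on the doubled arrays of 24 h, and 1.00 at 48 h, against at most 0.58 in replicates 2 to 4 of these times. At 96 h it was 0.15 for replicate 1 and 0.78 for replicate 3, and there the median deviations of the members were -0.03 and -0.04. The same log2 ratio for the actin control probe sets did not follow this order. On replicate 1 it was 1.74 at 4 h and 1.38 at 12 h, below replicates 2 to 4 of those times. At 96 h it was 2.55 on replicate 1, above the other replicates. The part of RNA quality in the members' values was not tested. With replicates 1 and 2 only, the rule chose 49 probe sets, 43 of them members, and with replicate 1 of every group left out 58, of which 45 were members.

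Lists of other genes linked to leaf growth held few measured genes, and their counts in mature against developing leaves at 24 h stand beside 37.5% lower and 27.1% higher over all probe sets tested. Of 25 listed histone and chromatin symbols, 4 had a probe set, HTB1, HTB2, HTB4 and HTB11, all of them histone H2B genes, and all 4 fell. HTB2 fell by 2.36 on the log2 scale (SE 0.19, limma adjusted p = 1.48e-11), with a developing range of 1.33, and HTB1 fell by 2.29 (SE 0.20, adjusted p = 1.44e-10). Of 18 tubulin and microtubule symbols, 7 were tested, 4 lower and 1 higher, while TUB6 and SPR1 were not called. TUB7, a beta-tubulin, came closest to the rule with a gap of 2.01, at a median of 351 in developing leaves against 51.8 and 59.99 in mature leaves. The only mitotic gene measured of 31, AUR3, fell by 0.99 (SE 0.14, adjusted p = 9.11e-07). Of 41 leaf growth and polarity symbols 4 were tested, 2 lower and 1 higher, and YAB3, a factor of the lower leaf side, fell by 1.37 (SE 0.11, adjusted p = 2.30e-11).

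Of 24 symbols of tetrapyrrole synthesis and chloroplast building, 7 were tested, 3 lower and 2 higher, which is close to the shares of 37.5% and 27.1% over all probe sets. Of these, GSA1, an early enzyme of the chlorophyll pathway, fell by 1.74 (SE 0.16, limma adjusted p = 3.31e-10). Both tested genes of glucosinolate synthesis, of 28 listed, rose, among them BCAT4, which acts in methionine chain elongation, by 4.06 (SE 0.27, adjusted p = 5.94e-13). WSD1, a wax ester synthase and the only cuticle gene measured of 33, fell by 1.79 (SE 0.26, adjusted p = 1.06e-06). FMA was the only tested gene of 12 stomatal lineage symbols, with a difference of -0.26 ± 0.19 (SE) that did not pass the test. None of the 22 symbols for DNA replication or the 11 for lipid transfer proteins had a named probe set, so these groups were not examined.

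Markers of other cell types were few on the named part of the array. For shoot meristem, CLV3 and UFO were measured of 9, and their summed signal was 3.82 to 7.81 in developing and 4.31 to 5.03 in mature leaves, at the bottom of the array in both. For trichomes, TRY alone was measured of 12, at 26.2 to 98.1 in developing and 86.9 and 91.2 in mature leaves. For guard cells, FMA alone was measured of 11, at 38.8 to 73.0 and at 40.2 and 50.3. For mesophyll, RCA alone was measured of 11, at 2226 to 5049 and at 4545 and 5011. Pooled over the developing times, these 3 overlapped between the leaf ages. At 24 h alone TRY was at 59.9 ± 4.88 (SD, n = 4) in developing and 89.1 ± 3.09 (SD, n = 2) in mature leaves, and was called higher in mature leaves by 0.51 (limma adjusted p = 0.0243), a call lost in 2 of 36 alternatives. For vascular tissue, SWEET11 alone was measured of 12, at 78.3 to 255 in developing and 514 and 753 in mature leaves. For senescent leaves, 4 of 13 were measured, with a summed signal of 38.4 to 96.4 in developing and 343 and 377 in mature leaves. CR4, the only epidermal marker of 9, was at 6.63 to 33.2 in developing and 3.05 and 4.04 in mature leaves. No flower or root marker had a named probe set. CR4 was too dim to be tested. SWEET11 and, of the senescence markers, WRKY53, the only one tested, were called higher in mature leaves, by 2.27 and 2.61 (limma adjusted p = 2.48e-11 and 1.82e-12). The part of these cell types in the members' difference was not tested.

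Measures of array quality overlapped between the leaf ages. Median signals ran from 41.1 to 48.1 on developing and from 40.8 to 43.3 on mature arrays. The log2 ratio of the 3′ to the 5′ actin control probe sets, which rises as RNA degrades, ran from 1.38 to 3.08 on developing arrays and from 1.14 to 2.19 on mature ones. The GAPDH ratio ran from 0.00 to 1.23 on developing and from 0.22 to 0.55 on mature arrays, with its highest values on developing replicate 1 arrays.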

How the data were processed

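For 28 arrays the authors deposited 1 intensity for each probe set, which the submitters' processing notes name as MAS5 signal, on a linear scale. No MAS5 version is given in the sources used here. Precision is limited by how many arrays each group has. Groups follow the labels. A pair of arrays share the title 24 h replicate 1 and entered as their log2 mean, and 1 array with a differing treatment note was assigned to no group, which left 26 replicates.

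Membership was computed from group means of log2(signal + 10), leaving out 64 control probe sets. Probe sets with a mean above the 40th percentile, 13647 in all, were fitted in 1 linear model over the 7 groups by lmFit and eBayes (with trend) of limma 3.58.1, run in R 4.3.3. Tests are two-sided, with Benjamini-Hochberg adjustment over all probe sets tested and a threshold of 0.05. The rule and the fit were tested on simulated data.

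The members and the lists were chosen with earlier results of these data known. The ribosomal, thaumatin-like, nascent polypeptide-associated complex and plastid chaperonin loci were listed from general knowledge after the values were seen. Genes that share the symbol stem XTH, SBT, TUB or EXPA were also grouped after the values were seen. Symbols FDH and LCR matched other genes of the same symbol and were left out of the lists. Signals of some groups are given for one-gene members in a list, among the 12 largest gaps or among the 6 highest developing signals. The same holds for the 4 largest changes in each direction at 12 h against 2 h and at 96 h against 24 h. Signals or differences are given for up to 6 genes per list. For the 3 probe sets nearest each threshold on either side, the gap or range is given. Gene names and the order of genes follow the annotation of assembly TAIR10.1. Alternatives were pseudocounts of 1 and 50, quantile normalization, median centring, other filters and thresholds, either doubled array alone, group medians, a replicate block, only the compared groups, eBayes without trend, and each replicate left out. Deviations from the group means correlated above 0.1 in 9 of 21, 4 of 21, 6 of 15 and 9 of 15 same-numbered pairs for replicates 1 to 4, not in every pair, and the labels give no shared source, so the numbers were not taken as pairs. No sequences are shown.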

Additional observations from a re-analysis of the deposited data

Results flagged for a closer look

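The 22 members with 1 gene whose signals are given were examined at each developing time. The highest or lowest of the 4 developing replicates stood apart in 4 of 132 groups, or 3.03%, where chance alone flags about 1 in 20 groups. AT5G05670, of the signal recognition particle receptor, stood apart at 4 h replicate 4, with 134.7 against 99.7 to 105 in the other 3. AT3G57220, the glycosyl transferase, stood apart in the same array, with 133.5 against 93.6 to 99.9, and also at 24 h replicate 1, with 44.6 against 101 to 108. Cpn60beta2 stood apart at 24 h replicate 2, with 1280.3 against 1124 to 1142.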

How the results depend on the processing

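The number of probe sets chosen depended most on the constant added before the logarithm and on the gap threshold. It was 128 with a constant of 1 (54 of them members), 16 with 50 (15 of them members), 162 with a gap of at least 2 and 16 with a gap of at least 3, and 51 to 57 with each replicate left out. The calls between leaf ages, fixed by the choice of members, say nothing about stability. Leaving out each replicate gave 17 to 24 calls at 12 h against 2 h, 2 to 5 at 24 h against 2 h, with 2 without 2 h replicate 3 or without 24 h replicate 4, and 6 to 22 at 96 h against 24 h. The last count was 9 with no filter on low values. Quantile normalization gave 4 higher and 17 lower at 12 h against 2 h, and median centring 0 higher and 3 lower at 24 h against 2 h. The same-numbered samples share only a number, and the replicate block gave 55 calls between leaf ages and 23, 5 and 16 in the comparisons over time, in the order above. With each replicate left out, the ribosomal genes outside the set gave 50 to 68 lower at 12 h and 16 to 38 lower at 96 h. The gaps of the named members, over 704 recomputations, kept their sign and ran from 1.28 to 4.78. Calls on the pathway and marker genes outside the set held in all alternatives that tested them, except for EXPB1, TUB5, PHV, ARL, HEMA2, CHLM and TRY. With only 2 mature replicates at 1 time, changes of mature leaves over time were not measured, and signals below 27.8 have little precision.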

Other observations

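One array titled 4 h replicate 1 carries a treatment note with letters that differ from those of the other developing arrays, and it was assigned to no group. Its tissue label is developing leaf. In it all 55 members were above both mature replicates, by at least 2.07 on the log2 scale, as were 47.0% of all probe sets, and 51 members lay within the range of the 24 developing replicates. Relative to the 4 h mean the members ran from -0.70 to 0.47 with a median of -0.17. The ribosomal members AT4G17390 and AT3G07110 were at 1898 and 1812 there, XTH16 at 354 and AT4G38660 at 304.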
